A study of Mus musculus with 4 samples.

Results

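Six2, Six4, Eya1, Eya2, Eya4 and Dach1 are mouse relatives of the fly genes sine oculis, eyes absent and dachshund, which form a network of transcription regulators that act together in embryonic tissues. These 6 genes were taken by symbol from the 27998 genes of the count matrices. Six2 and Six4 encode homeodomain transcription factors, Eya proteins are coactivators and phosphatases that have no DNA-binding domain of their own, and Dach proteins are nuclear cofactors related to the Ski family that can act as corepressors. The network is known upstream of the myogenic factors in trunk and limb muscle, and in the ear, the kidney and the pharyngeal arches, and mutations of human EYA1 cause branchio-oto-renal syndrome.

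All measurements came from mouse embryos of the Swiss Webster strain with the genotype Mesp1Cre;Rosa26-GFPflox/+. In these embryos Cre made from the Mesp1 locus switches on a GFP reporter in early mesoderm and its descendants, so that the sort covers the whole Mesp1 lineage and not the muscle or heart field alone. GFP positive, DAPI negative cells of pooled embryos were captured with a 10x Genomics 3′ kit in 1 library each at 4 stages, E8.0 and E8.25 and then E9.5 and E10.5, and no stage was repeated. The dissected tissue was the upper body for E8.0 and E8.25, the early libraries, and heart plus pharyngeal apparatus for E9.5 and E10.5, the late libraries, so stage and region cannot be told apart.

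After the filters on cells, 7118, 2884, 3921 and 7525 cells were kept in order of stage, with a median of 21321, 35216, 17254 and 15205 UMIs (unique molecular identifiers, counted molecules) per cell. Haemoglobin transcripts made up 0.176%, 2.08%, 0.0298% and 10.45% of all UMIs in the same order. Pairs of libraries shared 16 to 88 cell barcodes, at most 1.39% of the smaller library. Levels are given as counts per 1000000 summed UMIs (CPM) with exact Poisson 95% intervals, and shares of cells with exact binomial 95% intervals; both cover counting error only.

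Six2 lies on chromosome 17 from 85662736 to 85688254 (ENSMUSG00000024134), Six4 on chromosome 12 from 73099609 to 73114031 (ENSMUSG00000034460), Eya1 on chromosome 1 from 14168953 to 14311035 (ENSMUSG00000025932), Eya2 on chromosome 2 from 165595028 to 165771727 (ENSMUSG00000017897), Eya4 on chromosome 10 from 23102962 to 23350838 (ENSMUSG00000010461) and Dach1 on chromosome 14 from 97786846 to 98169765 (ENSMUSG00000055639), all in the mm10 build. The counts are of whole genes read from the 3′ end, so no exon or isoform could be assigned to them.

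In the Mesp1 lineage as a whole, Eya4 had its higher levels late and Eya2 its higher levels early, Eya1 was highest at E10.5, and Six2 and Six4 overlapped between early and late. Dach1 was above both early values in both late libraries, narrowly so at E10.5. With 1 library per stage no test between stages could be made, and in these summed libraries a change in the makeup of cells and a change in RNA per cell cannot be told apart.

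Eya1 measured 16.4, 14.04, 14.2 and 28.9 CPM in order of stage. The first 3 stages lay close together and E10.5 stood above them, with a log2 ratio of 1.03 to E9.5 (interval 0.93 to 1.13). Without the cells that passed an erythroid marker gate, Eya1 was at 37.1 CPM at E10.5.

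Eya4 measured 0.350, 0.302, 1.01 and 2.50 CPM in the same order. It was counted only 53 and 32 times in the early libraries, and E10.5 exceeded E8.0 by a log2 ratio of 2.84 (interval 2.42 to 3.29).

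Eya2 ran the other way, at 4.95, 5.65, 1.22 and 1.95 CPM. Both late libraries were below both early ones, with a log2 ratio of E9.5 to E8.25 of -2.21 (interval -2.56 to -1.89).

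Six2 was at 7.06, 11.2, 8.23 and 13.3 CPM and Six4 at 16.7, 12.9, 14.4 and 11.2 CPM. Early and late libraries overlapped for both genes, and neighbouring stages of each differed beyond counting error in all retained cells. Cells in the erythroid marker gate, which count in these sums, made up 2.56%, 26.2%, 0.204% and 17.2% of cells in order of stage. Without them, 11 stage levels of the members moved and 13 did not. With means over cells in place of sums, the counts were again 11 and 13. Counting error thus does not cover all that can shift a step between stages. Dach1 was at 12.6, 11.8, 19.5 and 13.8 CPM, highest at E9.5, with E8.0 and E8.25 within counting error of each other (log2 ratio -0.10, interval -0.21 to 0.00).

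Among the 5 other genes of the 3 families that were followed, Dach2 went from 0.613 and 0.707 CPM in the early libraries to 6.25 and 5.596 CPM in the late ones. Six5 measured 2.79, 4.07, 5.21 and 6.58 CPM and Eya3 14.9, 15.2, 14.6 and 11.4 CPM. Six3 and Six6, known from the eye and forebrain, were counted mostly at E8.25, at 2.08 and 0.604 CPM, and Six6 gave 0 UMIs in both late libraries.

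**Figure D1:**
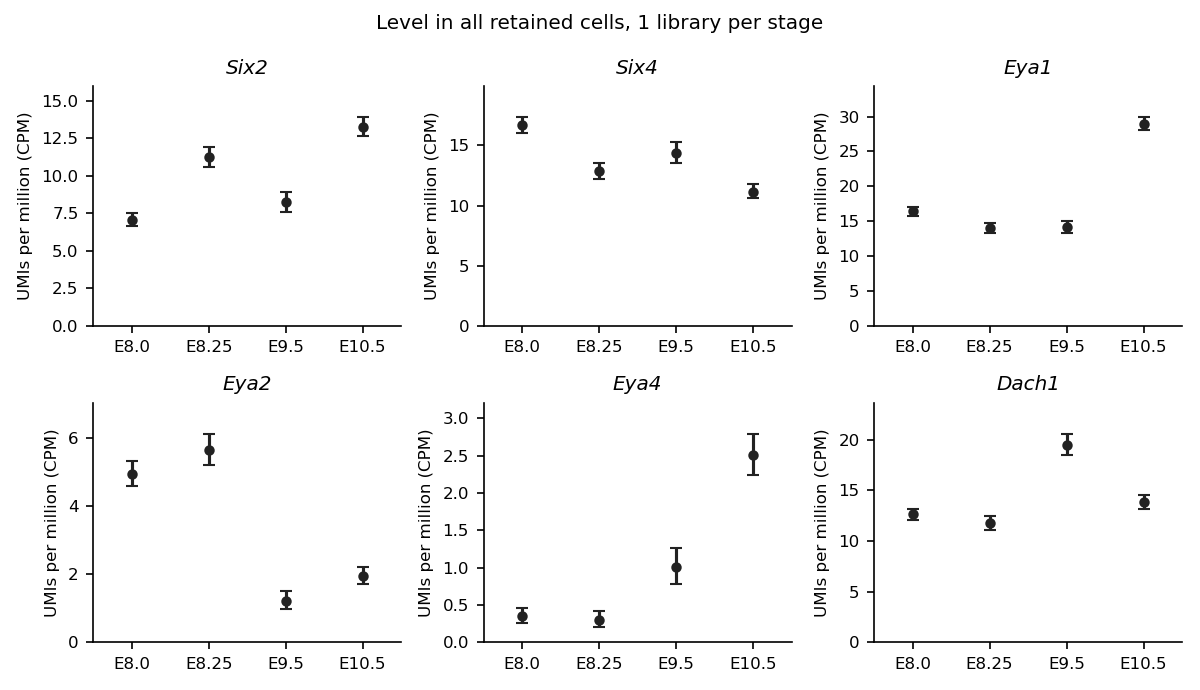
Level of each gene in all retained cells of the 4 libraries, in CPM, against embryonic stage. Points are the single library of a stage and bars are exact Poisson 95% intervals, which cover counting error only; Eya1 reached 28.9 CPM at E10.5, whereas Eya2 stood at 4.95 and 5.65 CPM early and at 1.22 and 1.95 CPM late.

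To see in which mesoderm the genes were counted, cells were placed by markers that include none of the 6. Cardiac progenitor cells had a UMI of both Isl1 and Nkx2-5. Muscle progenitor cells had at least 2 of Tcf21, Lhx2, Msc, Myf5 and Myod1, cranial mesoderm at least 2 of 6 markers, among them Alx1, Alx4, Prrx1, Otx2 and Cyp26c1, and paraxial mesoderm at least 2 of Meox1, Meox2, Tcf15, Pax1, Pax3 and Uncx. Endothelial, erythroid and cardiomyocyte cells were set aside first, and cells in more than 1 progenitor gate were left out of the comparisons. The cells left out in this way numbered 621, 464, 187 and 243 in order of stage. With them, the muscle gate held 90, 124, 821 and 979 cells and the cardiac gate 589, 190, 320 and 283. At E8.25, 53 cells passed both of these gates and 333 passed both the cranial and the paraxial gate.

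The gates held 380, 62, 223 and 241 cardiac progenitor cells, 21, 22, 694 and 819 muscle progenitor cells, 1102, 365, 749 and 1350 cranial cells and 1130, 482, 54 and 322 paraxial cells in order of stage. The early muscle gate held 1 cell with a UMI of Myf5 or Myod1 among its 21 at E8.0 and 0 among its 22 at E8.25. All 21 of its cells at E8.0 had exactly 2 markers, Myod1 was at 0 CPM in both early libraries, and Myf5 was at 2.18 and 0 CPM, against 28.2 and 40.3 CPM at E9.5 and E10.5. Each early muscle value below rests on at most 14 UMIs.

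Markers of other tissues were read in the same sums. Sox10 and Foxd3, which define neural crest, were between 0 and 0.14 CPM in the cardiac, muscle and cranial sums at E8.0, E9.5 and E10.5, but Sox10 reached 6.50 CPM in cranial and 9.13 CPM in paraxial cells at E8.25 and 4.50 CPM in paraxial cells at E9.5. Over the 5 neural crest markers together the sums were 24.5 and 41.1 CPM in cranial and paraxial cells at E8.25, 21.4 CPM in paraxial cells at E9.5 and 2.19 to 5.51 CPM in the others, with 1 to 5 of the 5 detected. The 4 endothelial markers summed to 2.13 to 12.4 CPM, the 5 erythroid markers to 0 to 22.5 CPM, the 4 macrophage markers to 0 to 9.30 CPM and the 4 intermediate mesoderm markers to 15.2 to 196 CPM. The 5 cardiomyocyte markers were all detected in each sum, at 347 to 493 CPM in cardiac progenitor cells and 67.4 to 276 CPM in the others. The 6 epithelial markers summed to 103.1 to 701 CPM early and 18.9 to 257 CPM late. Of these, the keratins Krt8 and Krt18 were at 48.5 to 390 CPM in the early sums and at 4.38 to 163 CPM in the late ones, with the epithelial cadherin Cdh1 at most at 1.87 CPM. Gate markers were counted in the other gates too. Isl1 and Nkx2-5 together were at 75.8 to 154 CPM in muscle progenitor cells, against 223 to 562 CPM in cardiac progenitor cells. The 5 muscle markers summed to 26.7 to 97.6 CPM in cardiac progenitor cells, against 128 to 465 CPM in muscle progenitor cells. The part of all these markers in the levels below was not tested.

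**Figure D2:**
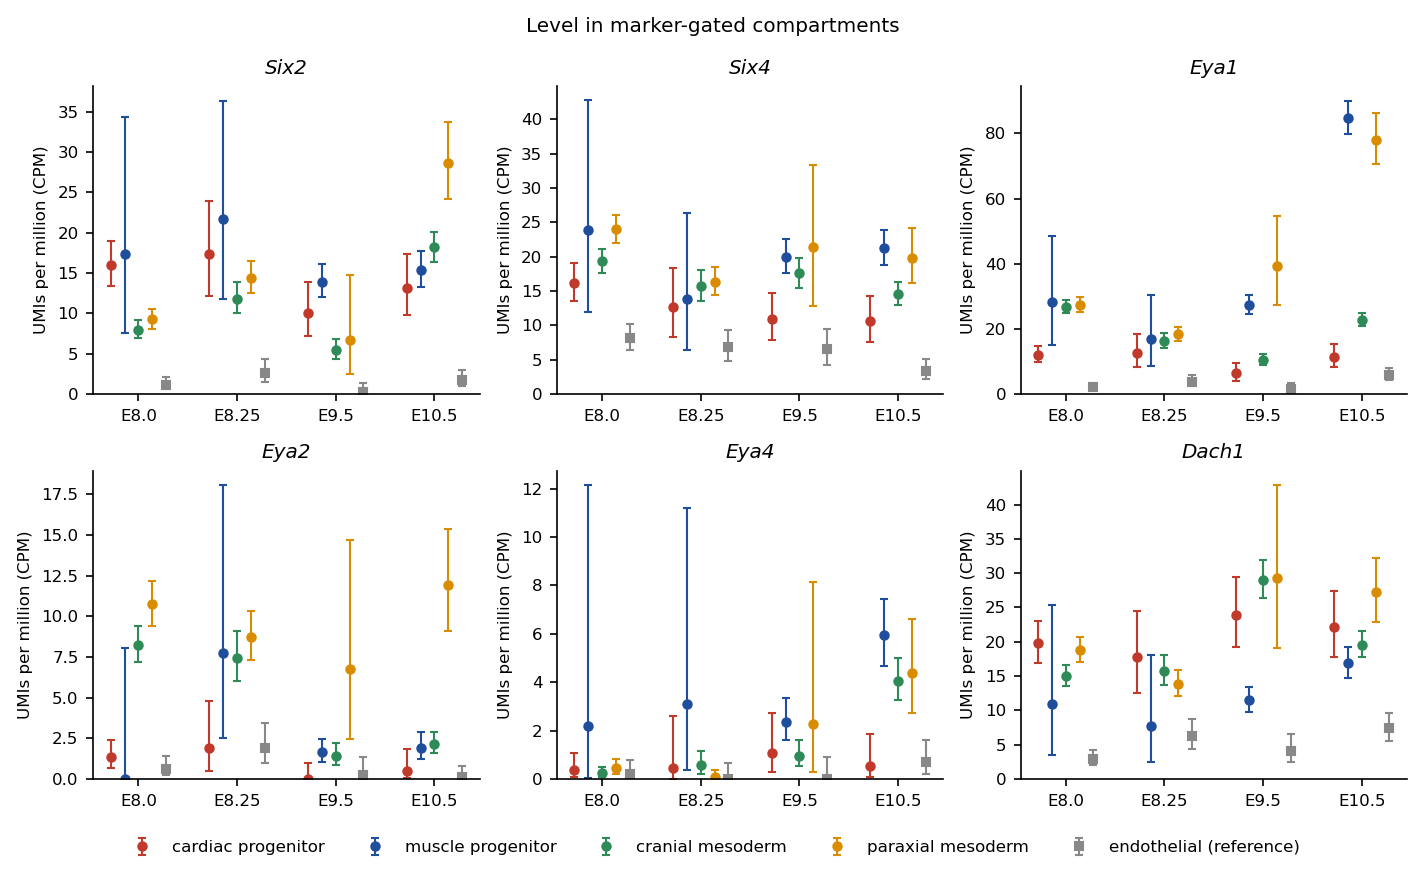
Level of each gene in CPM in the 4 marker-gated progenitor compartments and in endothelial cells, against stage. Points are sums over the cells of 1 library and bars exact Poisson 95% intervals; Eya1 was at 84.8 CPM in muscle progenitor and 78.0 CPM in paraxial cells at E10.5, against 22.8 CPM in cranial and 11.4 CPM in cardiac progenitor cells.

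Eya1, a coactivator known for its part in the pharyngeal arches, the ear and the kidney, was lowest in cardiac progenitor cells at every stage among the 4 compartments, and at E10.5 the muscle progenitor and paraxial levels stood well above the other two. In muscle progenitor cells it measured 28.3, 17.0, 27.3 and 84.8 CPM at the 4 stages, in paraxial mesoderm 27.4, 18.3, 39.4 and 78.0 CPM, in cranial mesoderm 26.8, 16.3, 10.4 and 22.8 CPM, and in cardiac progenitor cells 12.1, 12.6, 6.38 and 11.4 CPM. The cardiac values lay below the lowest muscle value and the lowest paraxial value of any stage, whereas the muscle and cranial values overlapped. In endothelial cells, taken as a reference for RNA that is free in the suspension, Eya1 was at 1.69 to 5.91 CPM.

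Eya1 was higher in muscle than in cardiac progenitor cells in 4 of 4 libraries, with a log2 fold change of 2.03 ± 0.33 (SE, n = 4 libraries, edgeR's quasi-likelihood test, Benjamini-Hochberg adjusted p = 0.0160). This comparison called 2.26% of the 10356 genes tested, and of the 4 members it could test only Eya1 was called. The call was lost without E9.5 (edgeR's quasi-likelihood test, adjusted p = 0.122), while the late libraries alone gave a log2 fold change of 2.65 and the early ones alone 0.88, which was not called (edgeR's quasi-likelihood test, adjusted p = 0.415). At E8.25 the within-library log2 ratio was 0.43 (interval -0.73 to 1.49), not beyond counting error. Since nothing repeats a stage, these p-values rest on how much the difference varied over the 4 stages. The test also draws the spread of each gene toward that of the other genes tested. Where only 2 libraries entered, the p-values rest mostly on that borrowed spread and say little of variation over stages. All comparisons paired the sums of a library as a block, and without that block 8 of the 9 calls of members over the 4 libraries were lost, Eya2 in paraxial over cardiac progenitor cells being the exception.

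Cranial mesoderm also had more Eya1 than cardiac progenitor cells in 4 of 4 libraries (log2 fold change 0.90 ± 0.15, edgeR's quasi-likelihood test, Benjamini-Hochberg adjusted p = 0.0234), in a comparison that called 3.17% of genes. Without E8.0, E9.5 or E10.5 the difference was 0.77, 0.94 and 0.82, and the call was lost. It was also lost with gates read on thinned cells (0.75, edgeR's quasi-likelihood test, adjusted p = 0.118). Paraxial mesoderm exceeded cardiac progenitor cells by 1.80 ± 0.35 on the log2 scale (edgeR's quasi-likelihood test, adjusted p = 0.0211), against 5.96% of genes called, and this call was lost without E9.5, where the difference was 1.62.

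Muscle progenitor cells were above cranial mesoderm in Eya1 in 4 of 4 libraries, by a log2 fold change of 1.24 ± 0.26 (edgeR's quasi-likelihood test, Benjamini-Hochberg adjusted p = 0.0316), in a comparison that called 3.65% of genes. Within the libraries the log2 ratio was 0.08 and 0.06 at E8.0 and E8.25, with intervals from -0.84 to 0.86 and from -0.96 to 0.93, and 1.39 and 1.89 at E9.5 and E10.5. The call was lost without E9.5 or E10.5 and with DESeq2. Between muscle progenitor and paraxial cells no difference in Eya1 was called (-0.11 ± 0.16), and the within-library log2 ratio at E10.5 was 0.12 (interval -0.05 to 0.29).

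The shares of cells followed the same order in the late libraries. After each cell was thinned to 8000 UMIs, Eya1 had a UMI at E9.5 and E10.5 in 20.5% and 39.2% of muscle progenitor cells, in 30.8% and 34.5% of paraxial cells, in 6.97% and 15.2% of cranial cells and in 5.39% and 7.87% of cardiac progenitor cells. Endothelial cells, taken as the reference although their own expression of the gene was not tested, gave 0% and 6.04%, with median depths at E10.5 of 17662 UMIs in endothelial and 16258 UMIs in cardiac progenitor cells before thinning, so that the cardiac share at E10.5 was within counting error of the reference, while the cardiac level of 11.4 CPM was above the highest endothelial one. Without thinning the muscle shares were 34.6% and 52.1%, the paraxial ones 42.6% and 47.8%, the cranial ones 16.2% and 23.9%, the cardiac ones 8.97% and 13.3% and the endothelial ones 2.15% and 7.79%; thinning left out 16 and 69 muscle, 2 and 29 paraxial, 17 and 103 cranial, 19 and 25 cardiac and 16 and 34 endothelial cells.

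Eya2, another coactivator of the family, had its highest level of the 4 compartments in paraxial mesoderm at every stage, although at E8.25 the intervals of the paraxial, cranial and muscle values overlapped. Its levels there were 10.7, 8.74, 6.75 and 11.9 CPM, against 8.245, 7.45, 1.43 and 2.15 CPM in cranial mesoderm, 0, 7.74, 1.63 and 1.92 CPM in muscle progenitor cells and 1.34, 1.87, 0 and 0.517 CPM in cardiac progenitor cells. The lowest paraxial value was above the highest cardiac one, and the cranial values fell into an early pair near the paraxial level and a late pair near the muscle level. The 0 in cardiac progenitor cells at E9.5 allows up to 0.798 CPM, and the 0 in muscle cells at E8.0 up to 6.53 CPM. Endothelial cells gave 0.137 to 1.92 CPM, so both late muscle values lay near the top of that reference.

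Eya2 exceeded the cardiac level in paraxial mesoderm by a log2 fold change of 3.41 ± 0.44 (edgeR's quasi-likelihood test, Benjamini-Hochberg adjusted p = 0.00349), higher in 4 of 4 libraries, and this call held under all 15 alternative settings, without each library in turn included. The cardiac sums held only 11, 4, 0 and 2 UMIs of Eya2, at or below the top of the endothelial range. Eya2 thus entered the paraxial and cranial tests against cardiac progenitor cells through the other compartment, and it was not tested for muscle over cardiac cells. The size of the fold is loosely set, and the early and late libraries alone gave 2.84 and 5.03. In cranial mesoderm the excess over cardiac progenitor cells was 2.50 ± 0.35 (edgeR's quasi-likelihood test, adjusted p = 0.0124), again in 4 of 4 libraries, and the call was lost without E8.0 or E8.25. With gates read on thinned cells this excess was 1.85. Muscle progenitor cells lay below paraxial mesoderm by -2.13 ± 0.46 (edgeR's quasi-likelihood test, adjusted p = 0.0282) in 4 of 4 libraries. That last comparison called 2.20% of genes, and its Eya2 call was lost without E9.5 or E10.5 and with DESeq2.

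Eya4, known for its role in the inner ear and in heart and muscle, was scarce. It measured 2.18, 3.09, 2.37 and 5.93 CPM in muscle progenitor cells, 0.234, 0.555, 0.955 and 4.06 CPM in cranial mesoderm, 0.447, 0.0652, 2.25 and 4.38 CPM in paraxial mesoderm and 0.364, 0.468, 1.06 and 0.517 CPM in cardiac progenitor cells. All muscle values were above all cardiac values, although the early muscle values rest on 1 and 2 UMIs. At E10.5 the muscle, cranial and paraxial levels were all above the cardiac one beyond counting error. Eya4 was too low to enter the 3 main tests against cardiac progenitor cells, and the differences that could be tested there were not called (0.97 ± 0.36 for muscle over cranial, 0.86 ± 0.64 for muscle over paraxial cells). For muscle over cardiac cells it entered some alternatives. With no filter on low counts it was called (2.41, edgeR's quasi-likelihood test, adjusted p = 0.0018). It was not called in the others that held it, at 2.01 to 2.92, and its cardiac level was at most 1.06 CPM.

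Six4, a homeodomain factor that partners Eya proteins on muscle promoters, differed less. It was at 24.0, 16.4, 21.4 and 19.9 CPM in paraxial mesoderm, 23.9, 13.9, 20.01 and 21.3 CPM in muscle progenitor cells, 19.4, 15.7, 17.6 and 14.6 CPM in cranial mesoderm and 16.2, 12.6, 10.9 and 10.6 CPM in cardiac progenitor cells. The paraxial values were all above the cardiac values, if narrowly, and the muscle and cranial values overlapped them. Endothelial cells held 3.44 to 8.16 CPM.

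Six4 was higher in paraxial mesoderm than in cardiac progenitor cells by a log2 fold change of 0.72 ± 0.15, in 4 of 4 libraries (edgeR's quasi-likelihood test, Benjamini-Hochberg adjusted p = 0.0272). Leaving out any single library ended this call, with adjusted p from 0.0586 to 0.0977 by edgeR's quasi-likelihood test. For muscle over cardiac progenitor cells the log2 fold change was 0.81 ± 0.18, and it was called in 5 of 15 alternative settings, among them the late libraries alone (0.99, edgeR's quasi-likelihood test, adjusted p = 0.0267).

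Six2, which maintains nephron progenitors in the kidney and is known in head mesenchyme, was at 16.0, 17.3, 10.1 and 13.2 CPM in cardiac progenitor cells and 17.4, 21.7, 13.9 and 15.4 CPM in muscle progenitor cells. In cranial mesoderm it was at 7.97, 11.8, 5.52 and 18.2 CPM and in paraxial mesoderm at 9.26, 14.4, 6.75 and 28.6 CPM. Cranial and paraxial cells were thus below cardiac progenitor cells at the first 3 stages and above them at E10.5, with within-library log2 ratios at E10.5 of 0.46 (interval 0.04 to 0.91) and 1.12 (interval 0.65 to 1.61). Of the 3 lower values, 2 were beyond counting error for cranial cells and only 1 for paraxial cells. The paraxial value at E9.5 comes from 54 cells. No comparison over the 4 libraries called Six2. It was called lower in cranial than in cardiac progenitor cells without E10.5 (-0.83, edgeR's quasi-likelihood test, adjusted p = 0.0451) and in the early libraries alone (-0.85, edgeR's quasi-likelihood test, adjusted p = 8.6e-05), against -0.45 over all 4. The early fit held 2 libraries, so its small p-value rests mostly on spread borrowed from other genes. In muscle over cranial cells it was called without E10.5 (1.147, edgeR's quasi-likelihood test, adjusted p = 0.0361) and with the gate of at least 3 markers (1.39, edgeR's quasi-likelihood test, adjusted p = 0.0489), against 0.57 over all 4. The cranial level at E10.5 exceeded that at E9.5 by a log2 ratio of 1.72 (interval 1.37 to 2.08), and endothelial cells held 0.242 to 2.62 CPM.

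Dach1 had its lowest levels of the 4 compartments in muscle progenitor cells at every stage, at 10.9, 7.74, 11.5 and 16.8 CPM. It was at 19.8, 17.8, 23.9 and 22.2 CPM in cardiac progenitor cells, 15.0, 15.8, 29.1 and 19.6 CPM in cranial mesoderm and 18.8, 13.9, 29.3 and 27.2 CPM in paraxial mesoderm. The muscle and cardiac values did not overlap, although each early muscle value rests on 5 UMIs and its interval overlapped those of the other 3 compartments. The muscle deficit was called against paraxial mesoderm (-0.94 ± 0.21, edgeR's quasi-likelihood test, Benjamini-Hochberg adjusted p = 0.0363), in 4 of 4 libraries, and was lost without E8.25, E9.5 or E10.5 and with DESeq2, while the late libraries alone gave -0.93 (edgeR's quasi-likelihood test, adjusted p = 0.0342). It was -0.73 ± 0.19 against cardiac progenitor cells and -0.79 ± 0.22 against cranial mesoderm, and neither was called over the 4 libraries. Against cranial mesoderm it was called in 3 of 15 alternative settings, among them without E10.5 (-1.20, edgeR's quasi-likelihood test, adjusted p = 0.0253), and against cardiac progenitor cells in 1 of 15. In endothelial cells Dach1 was at 2.97 to 7.42 CPM.

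For cranial and paraxial mesoderm, the remaining pair, no difference in the 6 genes was called over the 4 libraries by edgeR's quasi-likelihood test or by DESeq2. The edgeR comparison called 2.11% of genes. At an unadjusted p under 0.05, which 12.8% of the 12286 genes tested passed, 4 of the 6 would pass, Six2, Six4, Eya1 and Eya2, all lower in cranial cells in 4 of 4 libraries. In the late libraries alone Eya1 (-1.80) and Eya2 (-2.37) were called, with 54 paraxial cells at E9.5.

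**Figure D3:**
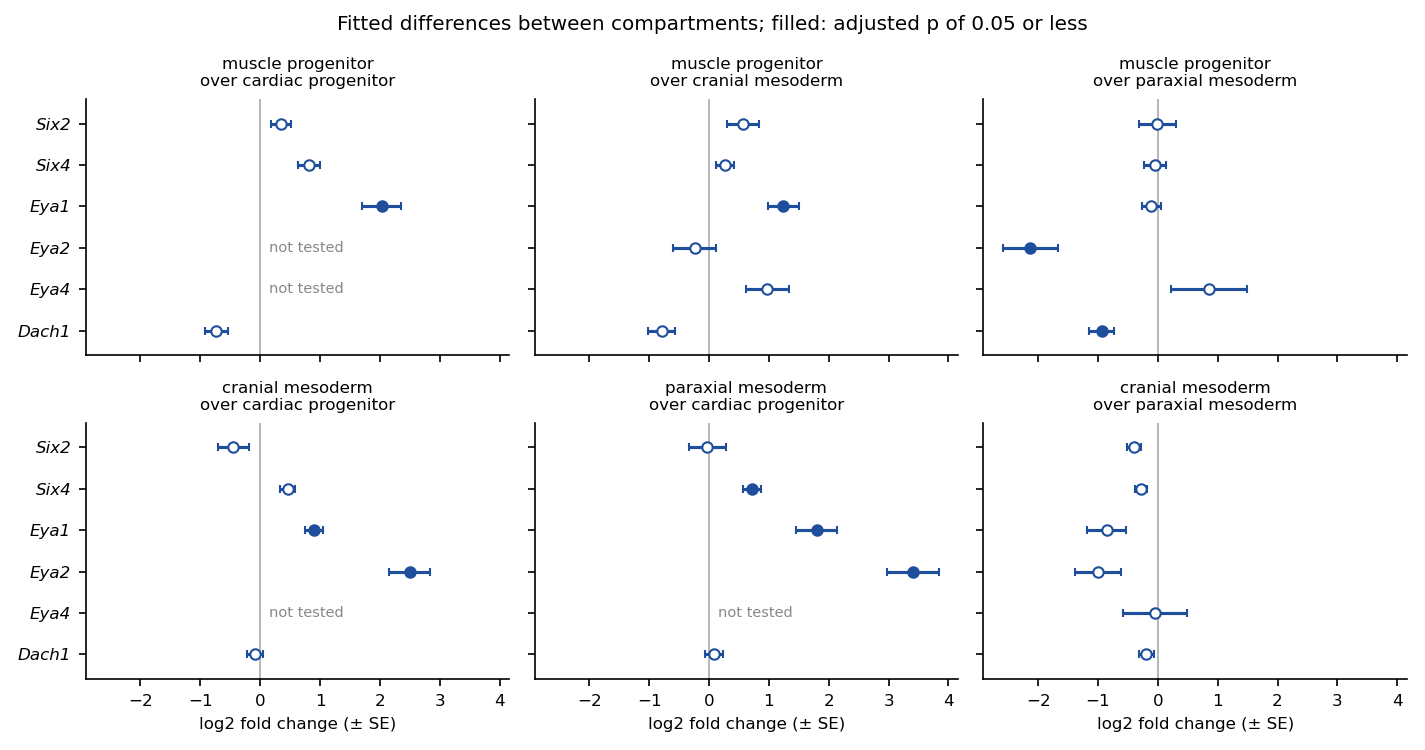
Fitted log2 fold change of each gene, with its standard error, in the 6 comparisons of progenitor compartments over the 4 libraries. Filled points had an adjusted p of 0.05 or less by edgeR's quasi-likelihood test; Eya2 in paraxial over cardiac progenitor cells, at 3.41, lies farthest from 0, and no point is filled for cranial over paraxial mesoderm.

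Over each comparison the members' median can be read beside that of all genes tested, which lay between -0.02 and 0.01. The median over the members tested was 0.58 for muscle over cardiac, 0.46 for cranial over cardiac and 0.72 for paraxial over cardiac progenitor cells, 0.42 for muscle over cranial, -0.08 for muscle over paraxial and -0.34 for cranial over paraxial mesoderm. The first 3 of these medians rest on 4, 5 and 5 members, and the others on 6. Eya4 was too low for those first 3, and Eya2 entered only with cranial and paraxial cells, through their own sums. These 3 medians therefore do not describe the 6 genes as a set.

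The differences between compartments were themselves compared between the early and the late libraries, with an interaction term added after the levels had been seen. The gap in Eya1 between muscle and cranial cells was wider in the late libraries by 1.65 ± 0.31 (log2, edgeR's quasi-likelihood test, Benjamini-Hochberg adjusted p = 0.0419, 0.745% of genes called), and that between paraxial and cardiac progenitor cells by 1.78 ± 0.29 (edgeR's quasi-likelihood test, adjusted p = 0.0188, 1.66% called). The difference of cranial from paraxial cells was lower late by -1.67 ± 0.17 in Eya1 (edgeR's quasi-likelihood test, adjusted p = 0.00604) and by -2.05 ± 0.31 in Eya2 (edgeR's quasi-likelihood test, adjusted p = 0.0300), where 0.887% of genes were called. In the comparisons of muscle with cardiac progenitor cells (0.338% of genes called), of muscle with paraxial cells (1.24%) and of cranial with cardiac progenitor cells (1.78%) the interaction called 0 of the members tested, the Eya1 value for the first of these being 1.77 ± 0.42 (unadjusted p = 0.0017, edgeR's quasi-likelihood test). Each such call was lost in at least 1 of the 4 fits that left out a library.

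Within the muscle gate, the myogenic determination factors Myf5 and Myod1 had a UMI in 199 of 694 cells at E9.5 and 338 of 819 at E10.5. Eya1 was at 36.0 and 114 CPM in these cells and at 23.4 and 62.1 CPM in the cells with neither. At both stages the intervals were apart, and the log2 fold change was 0.81 ± 0.10 (n = 2 libraries, edgeR's quasi-likelihood test, Benjamini-Hochberg adjusted p = 0.00914), in a comparison added after the levels had been seen that called 2.63% of genes. The call was lost with DESeq2. With a gate of at least 3 markers the difference was -0.041, so it depended on how strictly the muscle cells were chosen.

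Six2 was at 17.4 and 19.7 CPM in the cells with Myf5 or Myod1 and at 12.3 and 12.1 CPM in those with neither, and Six4 at 24.7 and 26.7 CPM against 17.9 and 17.0 CPM. Neither passed the test (0.63 ± 0.16 and 0.59 ± 0.14). Eya4 stood at 3.06 and 8.84 CPM against 2.06 and 3.69 CPM, and Eya2 at 2.59 and 2.39 CPM against 1.19 and 1.56 CPM, also without a call. Dach1 went opposite ways at the 2 stages, with a log2 ratio of -0.66 (interval -1.24 to -0.10) at E9.5 and 0.46 (interval 0.05 to 0.86) at E10.5. Cells with Myf5 or Myod1 had more UMIs, a median of 19665 and 15548 against 17712 and 14049. After thinning, Eya1 had a UMI in 54.3% of the cells with Myf5 or Myod1 at E10.5 and 28.5% of the others (311 and 439 cells deep enough), against 71.9% and 38.3% without thinning.

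**Figure D4:**
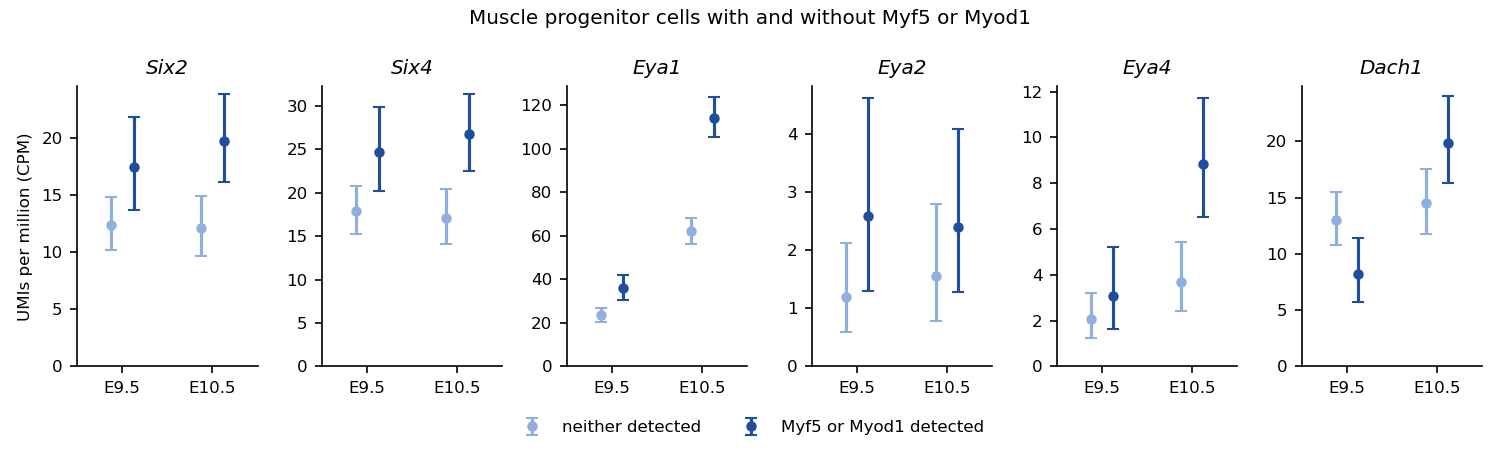
Level of each gene in CPM in muscle progenitor cells with a UMI of Myf5 or Myod1 (dark) and with neither (light) at E9.5 and E10.5. Points are sums over the cells of 1 library and bars exact Poisson 95% intervals; for Eya1 the pairs were 36.0 and 23.4 CPM at E9.5 and 114 and 62.1 CPM at E10.5.

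The genes were also read together in single cells thinned to 8000 UMIs, at E10.5. An Eya gene and Six2 or Six4 were both detected in 16.0% of paraxial, 12.1% of muscle, 5.37% of cranial and 1.85% of cardiac progenitor cells. In the same order, an Eya gene was detected in 39.6%, 41.6%, 20.05% and 8.33%, and Six2 or Six4 in 27.6%, 23.1%, 20.7% and 16.2%. The joint shares also follow these single shares, and an excess over them was not tested. Other stages gave other orders. Cranial cells were above paraxial cells at E8.0 (6.30% against 5.62%) and below cardiac progenitor cells at E9.5 (1.37% against 2.45%). In muscle progenitor cells at E10.5, Eya1 had a UMI in 57.3% of cells with Six2 (interval 45.4 to 68.7) and in 37.2% of those without (33.5 to 41.0). In paraxial cells at E10.5, Eya1 had a UMI in 57.1% of the cells with Six4 (41.0 to 72.3) against 30.7% of those without (25.03 to 36.8), and Six2 in 46.2% of the 26 cells with Eya2 (26.6 to 66.6) against 13.9% (9.95 to 18.6). The cells of a stage come from 1 library, so the intervals say nothing of other embryos.

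Counting where the UMIs fell shows what the gates leave out. At E10.5 the 4 progenitor gates held 53.5% of the Eya1 UMIs and 45.8% to 57.8% of those of the other members. The range over the 6 genes was 37.7% to 61.6% at E8.0, 34.4% to 39.6% at E8.25 and 50.5% to 73.2% at E9.5. At E8.25 the erythroid marker gate took 756 cells, of which only part were rich in haemoglobin (315 cells of that library had 5% or more of their UMIs from haemoglobin genes), and it held 22.4% of the Eya1 UMIs.

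**Figure D5:**
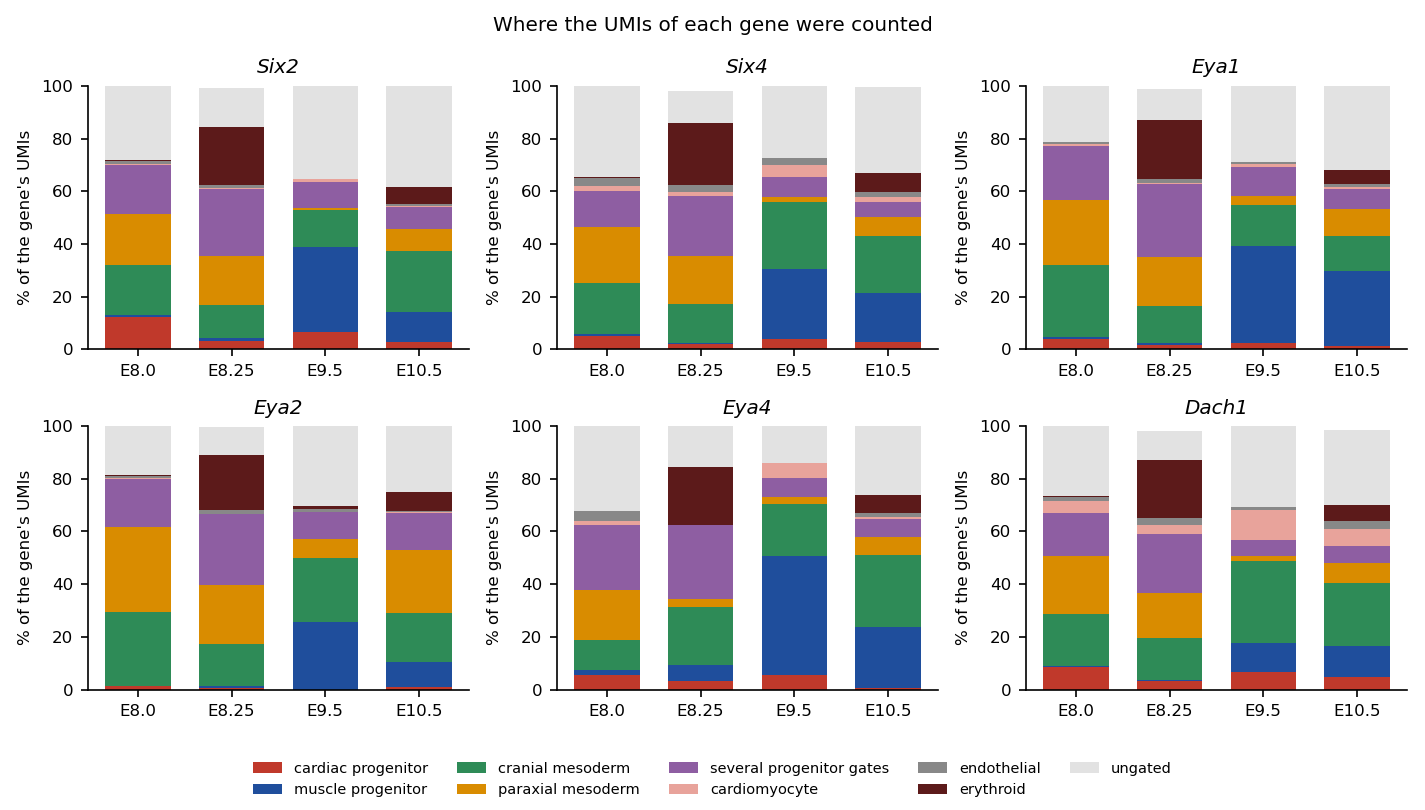
Share of each gene's UMIs, in % of its UMIs in all retained cells of a library, by compartment and stage. Each bar is 1 library and each colour 1 gate; bars under 100% leave out cells that passed several of the endothelial, erythroid and cardiomyocyte gates, and at E8.25 the erythroid gate held 22.4% of the Eya1 UMIs.

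Partners and known targets of the network, 17 genes, were counted in the same tests, as higher or lower where called by edgeR's quasi-likelihood test. The share of all genes called was 2.26% for muscle over cardiac, 3.65% for muscle over cranial and 2.20% for muscle over paraxial cells. It was 3.17% for cranial over cardiac, 5.96% for paraxial over cardiac, 2.11% for cranial over paraxial cells and 2.63% for the Myf5 or Myod1 comparison. Of the 15 tested for muscle over cardiac progenitor cells 2 were higher and 3 lower, with Tbx1, a T-box factor of the pharyngeal mesoderm, at 1.55, and Sobp, a cofactor of the network, at 1.57, while Skil, a Ski family corepressor, was at -1.08, Fgf8 at -0.71 and the cyclin gene Ccnd1 at -0.54. Muscle over cranial mesoderm gave 5 higher and 1 lower of 16, led by the growth factor genes Fgf8 at 2.14 and Fgf10 at 2.04, with Gdnf at 1.87, Tbx1 at 1.52 and Tle4 at 1.36 and with Ccnd1 at -0.49, and here Dach2 was lower (-1.83, edgeR's quasi-likelihood test, Benjamini-Hochberg adjusted p = 0.00622). Muscle over paraxial mesoderm gave 3 higher and 0 lower of 16, Fgf10 at 2.29, Fgf8 at 1.32 and Tbx1 at 0.93.

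Cranial over cardiac progenitor cells gave 1 higher and 3 lower of 15, with Myc at 1.30, Fgf8 at -2.94, Fgf10 at -1.83 and Skil at -0.90, and Dach2 was higher at 1.45. Paraxial over cardiac progenitor cells gave 2 higher, Sobp at 1.25 and Myc at 1.11, and 3 lower, Fgf10 at -2.28, Fgf8 at -2.17 and Skil at -0.75. Cranial over paraxial mesoderm gave 2 lower, Tle1 at -0.54 and Tbx1 at -0.59. In muscle cells with Myf5 or Myod1, Myog, a later myogenic factor, was higher by 2.58, Tbx1 by 1.03, Fgf10 by 0.75 and Sobp by 0.69, while Ezr was lower at -1.19 and Dach2 at -2.41. Six5 and Eya3 were called in none of these 7 comparisons.

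The genes whose levels ran most like each member were ranked by Pearson's r of log2(CPM + 1) over the 16 sums of 4 compartments and 4 libraries, among 8475 genes. These sums share libraries, and the 2 early muscle sums are shallow, so the values are descriptions. For Eya1 they were Sobp (r = 0.81), Polr3f (0.80) and Tcf4 (0.78), for Eya2 Mn1 (0.92), Foxd2 (0.89) and Lrig3 (0.89), and for Eya4 Scx (0.85), Gas2 (0.84) and Bnc2 (0.84). For Six4 they were Ctdspl (0.76), Grem1 (0.75) and Tceanc2 (0.75), for Six2 Pea15a (0.80), Tollip (0.78) and Rnf185 (0.74), and for Dach1 Lactb (0.88), Ebp (0.83) and Dgcr8 (0.82). Among the members themselves Six4 with Eya1 (r = 0.72) and Eya1 with Eya4 (0.64) were the most alike, and Six2 with Dach1 had the lowest value (-0.40).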

How the data were processed

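The deposited files hold raw UMI counts per gene and cell barcode, made by the authors with Cell Ranger 3.1.0 on the mm10 build, per the labels; they were used as deposited. Cells with at least 1000 genes and at most 10% mitochondrial UMIs were kept, and the cells ranked highest by Scrublet (scanpy 1.11.5) were removed at 0.8% per 1000 cells. A cell was called a cardiomyocyte at 20 or more sarcomere UMIs per 10000, and endothelial or erythroid with at least 2 markers. UMIs were summed per library and gate. Gates were compared pairwise with edgeR 4.0.16 (TMM scaling, filterByExpr, quasi-likelihood F-test, library as a block because both sums come from the same library), with Benjamini-Hochberg adjustment over all genes tested and a threshold of 0.05; the standard error is the log2 fold change over the root of F. DESeq2 1.42.0, other gates, filters and fits, and leaving out each library were the alternatives. A library entered where both gates held at least 20 cells. Scripts were tested on simulated data. The members and lists were chosen with earlier results of these data known. The text names all members, the called genes of the 17 partners, the other family genes, and the 3 genes most like each member with at least 10 CPM in 2 sums. Gene positions are from RefSeq (mm10), and 1 gene of the family and 1 marker of the cranial gate are not reported here.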

Additional observations from a re-analysis of the deposited data

Results flagged for a closer look

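In all, 4 differences between the late and the early libraries passed the test of the difference itself, and 1 more moved in opposite directions without a test. Region changes with stage, so they cannot be told apart. Eya1 in muscle over cranial cells was wider late by 1.65 (log2), lost without E8.0 or E8.25. Eya1 in paraxial over cardiac progenitor cells was wider late by 1.78, lost without E10.5. Eya1 in cranial over paraxial cells changed by -1.67, lost without E10.5. Eya2 in the same pair changed by -2.05, lost without E8.0 or E10.5.

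Dach1 in paraxial over cardiac progenitor cells had within-library log2 ratios of -0.08 and -0.36 early and of 0.29 and 0.29 late, a difference of 0.51 between the means. This opposite movement was picked out by sign and is untested as such; all 4 intervals include 0, and the interaction was not called (edgeR's quasi-likelihood test, adjusted p = 0.504).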

How the results depend on the processing

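Of the 9 calls of members over the 4 libraries, Eya2 in paraxial over cardiac progenitor cells held under all 15 alternatives and the others under 6 to 12. The Eya2 call rests on cardiac sums with few or no UMIs of the gene, and Eya2 entered the test through the paraxial sums. The alternatives share this floor, so they are not independent support for it. The cause of the changes was not tested, except that leaving out libraries also leaves fewer samples. The number of members called under each alternative that moved it by over 1.5 times is given below, with the main count, or the genes called in all, in brackets.

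Without the block that pairs the sums of a library it was 0 for muscle over cardiac (main 1), 0 for muscle over cranial (1), 0 for muscle over paraxial (2), 0 for cranial over cardiac (2), 1 for paraxial over cardiac progenitor cells (3) and 0 for the cells with Myf5 or Myod1 (1), and genes called in all fell from 234, 441, 254, 374 and 300 to 2, 5, 16, 10 and 2, for cranial over paraxial cells from 259 to 0, and for paraxial over cardiac cells from 631 by a factor of 6.01. DESeq2 gave 0 for muscle over cranial, muscle over paraxial and the Myf5 or Myod1 comparison (263, 196 and 103 genes in all). With no filter on low counts it was 4 for muscle over cardiac, 2 for muscle over cranial and 4 for Myf5 or Myod1 (850, 927 and 971 genes in all), and 3 for cranial over cardiac cells (871). With all compartments in 1 fit it was 2 for muscle over cardiac, 1 for muscle over paraxial and 1 for cranial over cardiac cells (295, 322 and 538). In that fit the count for muscle over cranial cells stayed at 1, but with Dach1 (-0.75) called in place of Eya1. The strict gate, which left 2 libraries for muscle, gave 2, 3 and 1 for muscle over cardiac, cranial and paraxial cells (1032, 1312 and 570 genes in all) and 0 for Myf5 or Myod1 (24 genes). Gates read after thinning gave 0 for muscle over paraxial and 1 for cranial over cardiac (154 and 409), and overlapping gates 0 for muscle over cranial, 0 for muscle over paraxial, 0 for cranial over cardiac and 1 for paraxial over cardiac cells (231, 221, 337 and 498). Chosen after seeing the data, the late libraries alone gave 2 for muscle over cardiac, 1 for cranial over cardiac and 2 for cranial over paraxial cells (main 0; 532, 543 and 338 genes in all), and the early ones 0 for the muscle comparisons with cardiac, cranial and paraxial cells (140, 111 and 335) and 3 for cranial over cardiac cells (1267). Leaving out each library gave 0 to 2 for the 3 muscle comparisons and for cranial over cardiac, and 1 to 2 for paraxial over cardiac cells, with 45 to 283, 145 to 527, 103 to 333, 98 to 320 and 331 to 669 genes called in all in these 5 comparisons.

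Log2 fold changes turned sign as follows, all but 1 of them not called. Muscle over paraxial Six2 (main -0.01) gave 0.26 with DESeq2, 0.057 with no block, 0.17 in 1 fit, 0.093 with thinned, 0.25 with overlapping gates, 0.026 with the haemoglobin gate, 0.66 early and -0.21 to 0.75 without 1 library; Eya1 (-0.11) gave 0.056 with no block, 0.25 in 1 fit, 0.040 with overlapping gates and -0.31 to 0.038 without 1 library; Six4 gave 0.032 in 1 fit and 0.027 late. Muscle over cranial Eya2 gave 0.18 with the strict and 0.097 with the thinned gate. Against cardiac progenitor cells, cranial Dach1 gave 0.081 with the thinned gate, 0.13 late and -0.23 to 0.043 without 1 library; paraxial Dach1 -0.13 early and -0.036 to 0.20 without 1 library; paraxial Six2 0.16 with no block, 0.80 late and -0.53 to 0.36 without 1 library. Cranial over paraxial Eya4 gave 0.19 with the thinned gate, 0.019 with the haemoglobin gate and -0.52 to 0.26 without 1 library. For Myf5 or Myod1, Dach1 gave -0.037 with DESeq2, -0.25 strict, -0.13 thinned, -0.030 with doublets kept and -0.038 with the haemoglobin gate, Eya2 (0.88) -0.072 strict and -0.068 thinned, Six2 (0.63) -0.073 strict, and the called Eya1 (0.81) -0.041 strict. Depth limits the early muscle sums, with 0 to 14 UMIs of a member, and Eya4, too low for 3 of the comparisons.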
